A study of Mus musculus with 168 samples.

Results

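The genes described here are 32 genes whose human counterparts are mutated in inherited motor neuron diseases, namely amyotrophic lateral sclerosis (ALS) and hereditary motor neuropathies. They are listed by name, by a rule that uses no measured value, and make up 32 of the 39410 rows of the expression table. All 32 had a row. The study measured polyadenylated RNA of neurons cut out by laser capture microdissection from delta7 mice, a model of spinal muscular atrophy (SMA), and from littermate controls, on postnatal days 2, 5 and 10. SMA mice were Smn-/-/SMN2+/+/SMN∆7+/+ and controls Smn+/+/SMN2+/+/SMN∆7+/+, so that both genotypes carried the human SMN2 gene and the SMN∆7 transgene. Somatic motor neurons were taken from lumbar spinal cord and from the facial, hypoglossal and ocular motor nuclei (the last of cranial nerves 3 and 4), visceral motor neurons from the dorsal motor nucleus of the vagus, and neurons that are not motor neurons from the red nucleus. There were 168 libraries from 34 mice, 15 controls and 19 SMA mice. Averaging libraries of the same mouse and population left 160 mouse samples, 72 control and 88 SMA, in 36 groups of 3 to 7.

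The proteins encoded by these genes fall into a few kinds of work. Sod1 and Chchd10 act in superoxide removal and in mitochondrial cristae. Tardbp, Hnrnpa1, Hnrnpa2b1, Matr3, Tia1, Ewsr1, Taf15 and Atxn2 bind RNA, many of them in splicing or in stress granules. Sqstm1, Optn, Tbk1, Vcp, Ubqln2 and Ccnf take part in selective autophagy, in the extraction of ubiquitinated proteins or in ubiquitin ligation. Vapb, Chmp2b, Fig4, Spg11, Bscl2 and Anxa11 act on membranes and their traffic, Pfn1 and Tuba4a are cytoskeletal, Hspb1 and Hspb8 are small heat shock proteins, Gars charges glycyl-tRNA, and Ighmbp2 is a helicase. The others are Nek1, a kinase, Plekhg5, Ang, a secreted ribonuclease, and Trpv4, a cation channel. Mutations in these broadly expressed genes damage mainly neurons with long axons, and in ALS and SMA alike the ocular motor neurons are largely spared while spinal motor neurons are lost.

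The labels held for the deleted gene and, in controls, for the sums of the population markers. Smn1, the deleted gene, lay at 4.32 to 63.3 RPKM (reads per kilobase of transcript, scaled to the mapped reads of the library) in the 72 control samples and at 0 to 4.24 RPKM in the 88 SMA samples, 70 of which were at 0. In controls the summed level of 5 motor neuron markers was 659 to 1811 RPKM in the 5 motor populations and 29.9 to 100.5 RPKM in the red nucleus, while 3 red nucleus markers summed to 280.2 to 757 RPKM there and to at most 129 RPKM elsewhere. Ocular SMA samples of day 10 departed from these control values. Their red nucleus markers summed to 26.9 to 212.8 RPKM, against 26.5 to 46.9 RPKM in ocular controls of that day. Their motor neuron markers summed to 452 to 875 RPKM, against 926 to 1024 RPKM in those controls. Whether red nucleus neurons were captured in them was not tested. Markers of other cells were present throughout the controls: 8 astrocyte markers summed to 386 to 2793 RPKM, and 8 oligodendrocyte markers rose from a mean of 48.0 RPKM at day 2 (n = 24) to 471 RPKM at day 10 (n = 24). Most of the astrocyte sum came from Aldoc and S100b. In lumbar controls these averaged 1487 and 587 RPKM, and the other astrocyte markers 4.50 to 13.5 RPKM. The astrocyte sum thus mainly follows Aldoc and S100b and is no measure of astrocyte content. In such bulk samples a smaller share of cells of a type and less RNA per cell cannot be told apart. Depth, recovered from the RPKM steps, was 0.342 to 16.3 M reads (megareads) per library with a median of 5.89 M, and 2 libraries lay under 2 M: red nucleus control mouse 252 of day 10 and facial SMA mouse 206 of day 2.

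Levels in control mice differed widely between genes on the RPKM scale, which is per transcript length and so allows genes to be set side by side. Sod1 had the highest mean (1697 ± 276 RPKM, SD, n = 72). Chchd10 (771 ± 249), Sqstm1 (509 ± 142), Pfn1 (437 ± 126.98), Bscl2 (229.2 ± 63.1), Tuba4a (169.3 ± 73.4) and Gars (147 ± 33.7) followed, all above 100 RPKM, with SD over the same n = 72. Another 16 members averaged 10 to 100 RPKM, 5 averaged 1 to 10 RPKM, and Ccnf, Spg11, Trpv4 and Anxa11 averaged under 1 RPKM. Anxa11 was above 0 in 3 of 160 samples and was the only member that failed the filter of at least 1 RPKM in 3 samples, which left 31 members for testing in controls. Ang was above 0 in 54 of the 160 samples and Trpv4 in 64, so these were near the detection limit. By GENCODE M21, 19 of the 32 members overlap another annotated gene, as Ang does Rnase4 and Bscl2 does Gng3. Whether the counting used strand is not given in the sources used here, so reads of such pairs may be shared, and Hnrnpa1 (3.73 ± 1.93 RPKM, SD, n = 72) has many near-identical processed pseudogenes.

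**Figure D1:**
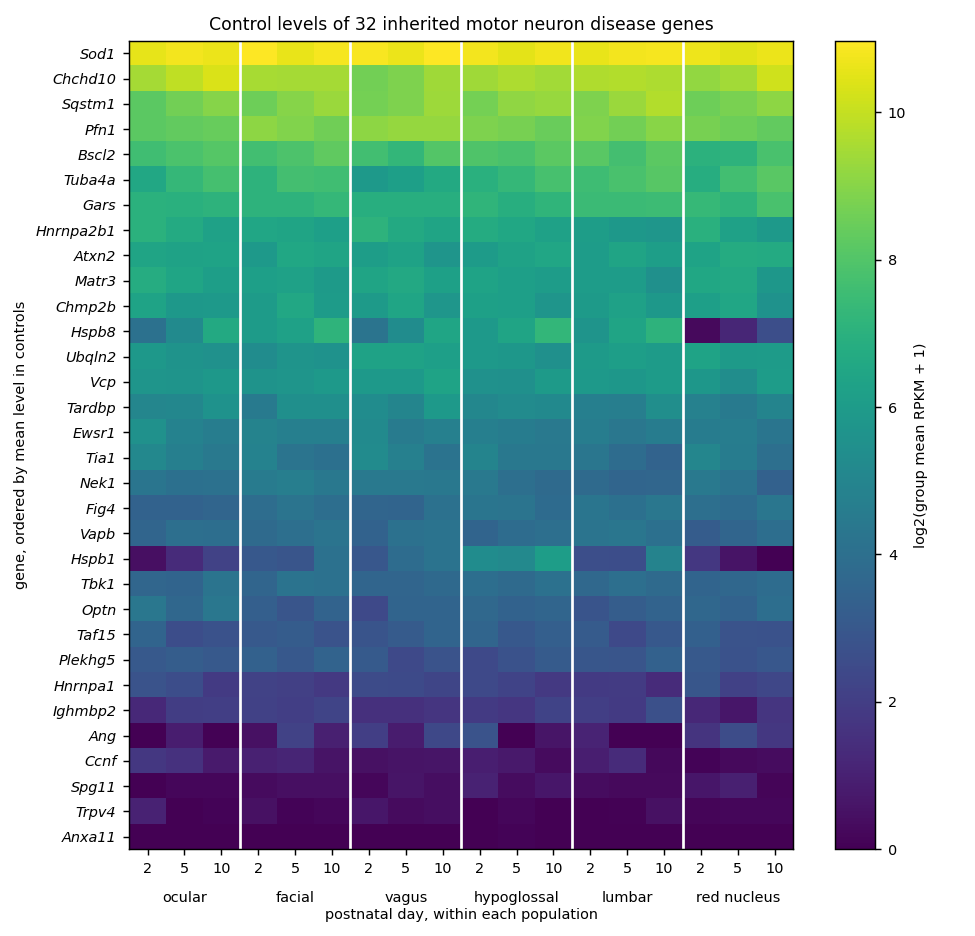
Mean control level of the 32 genes as log2(mean RPKM + 1), with 1 row per gene and 1 column per population and postnatal day. Most rows keep a nearly even colour across columns, from Sod1 at the top to Anxa11 at the bottom, and the rows of Hspb1 and Hspb8 are the most uneven.

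The first question was which of these genes differ between populations in healthy animals. Among the 31 members tested, 21 differed among the 6 populations (limma's moderated F test on log2(RPKM + 1), days weighted equally, Benjamini-Hochberg adjusted over 19621 genes, threshold 0.05). Of all genes tested 44.5% did so. Sod1 did not pass (F = 1.68, adjusted p = 0.242), its population means lying between 1564 RPKM in the red nucleus and 1823 RPKM in the vagus. Tbk1, Taf15, Atxn2, Ang, Chmp2b, Spg11, Ccnf, Plekhg5 and Trpv4 also missed the threshold.

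The small heat shock genes differed most. Hspb1, which chaperones unfolded proteins and stabilises the cytoskeleton, lies at chromosome 5, 135887919 to 135889563 (mm10, plus strand). In the hypoglossal nucleus its control samples ran from 29.3 through a median of 41.5 to 72.7 RPKM (n = 12), and in the ocular nuclei from 0 through 1.64 to 4.59 RPKM (n = 12). The hypoglossal samples all lay above all ocular samples. Lumbar neurons ran from 3.70 through 5.84 to 39.02 RPKM (n = 13), facial from 3.08 through 7.49 to 24.1 RPKM (n = 13) and vagal from 4.71 through 8.05 to 35.9 RPKM (n = 11), so these 3 overlapped. In the red nucleus the range was 0 to 5.32 RPKM with a median of 0.135 RPKM (n = 11), and all 4 day 10 samples were listed at 0. From the recovered depths and the GENCODE M21 exon length, 3 reads of Hspb1 in those 4 libraries would have given 0.386 to 8.51 RPKM. The F test gave F = 107.2 (adjusted p = 1.8e-26), and against the mean of the other 5 populations, a contrast added after the data were seen, the hypoglossal level was higher by 3.12 on the log2 scale (SE 0.18, adjusted p = 8.2e-22, limma, where 10.8% of all genes passed).

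Hspb8, the partner of the co-chaperone Bag3 in chaperone-assisted autophagy, lies on the same chromosome (5, 116408491 to 116422864, minus strand). Red nucleus samples ran from 0 through 0.8288 to 11.8 RPKM (n = 11), ocular samples from 5.43 through 34.5 to 128.4 RPKM (n = 12) and vagal samples from 13.4 through 46.7 to 106.7 RPKM (n = 11). Facial, hypoglossal and lumbar medians were 89.1, 86.4 and 81.1 RPKM, with ranges that overlapped widely. The red nucleus had the lowest level: on the log2 scale it lay below the mean of the other 5 (-4.89, SE 0.17, adjusted p = 3.5e-33, limma, where 21.9% of all genes passed). Astrocyte and oligodendrocyte markers were present in the red nucleus as well, summing to 628 to 2123 and to 17.5 to 683 RPKM. The part of other cells in the difference was not tested.

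Because Hspb1 and Hspb8 carried the largest differences, the 250 bases before each RefSeq start site (GRCm38.p6) are printed here 5′ to 3′ in the direction of transcription, Hspb1 from chr5:135887669-135887918 (plus strand) and Hspb8 from chr5:116422865-116423114 (minus strand). Capitals mark matches to the heat shock element half-site pairs GAANNTTC and TTCNNGAA, searched on both strands.
Hspb1: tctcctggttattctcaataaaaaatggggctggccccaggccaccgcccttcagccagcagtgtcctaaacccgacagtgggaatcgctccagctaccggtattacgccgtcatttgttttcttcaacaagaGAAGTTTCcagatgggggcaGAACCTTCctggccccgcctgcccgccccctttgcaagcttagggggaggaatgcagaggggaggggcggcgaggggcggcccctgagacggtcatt
Hspb8: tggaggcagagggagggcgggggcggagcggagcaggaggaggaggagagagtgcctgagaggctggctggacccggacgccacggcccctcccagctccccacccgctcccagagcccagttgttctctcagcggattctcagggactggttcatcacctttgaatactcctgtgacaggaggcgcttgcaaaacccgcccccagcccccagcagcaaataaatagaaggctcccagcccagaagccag
The Hspb1 window held 2 GAANNTTC matches, 1 ending 110 bases and 1 ending 90 bases before the start, and no TTCNNGAA. Of 32851 promoter windows of the same length 6.69% held GAANNTTC and 7.17% TTCNNGAA. Neither pattern occurred in the Hspb8 window. A promoter was found for 29 of the 32 members, and Sod1, Vcp, Hnrnpa2b1, Ang and Anxa11 had a GAANNTTC match too. A match to these letters is a description and not a shown binding site.

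Tuba4a, an alpha tubulin, and Chchd10 had their lowest means in the vagus. Vagal Tuba4a ran from 31.1 through 74.5 to 142 RPKM (n = 11), lumbar Tuba4a from 149 through 236 to 320.0 RPKM (n = 13). These ranges did not overlap, while the vagal range overlapped those of the other 4 populations. On the log2 scale the vagal level was below the mean of the other populations (-1.26, SE 0.12, adjusted p = 1.6e-13, limma) and the lumbar level above it (0.69, SE 0.11, adjusted p = 2.6e-06). Of all genes tested 27.7% passed for the vagus, 18.4% for lumbar and 17.7% for ocular neurons. Chchd10 was lowest in the vagus (519 ± 143 RPKM, SD, n = 11) and had its highest mean in ocular neurons (1001 ± 310, n = 12), and the vagal range (322 to 813 RPKM) overlapped that of each other population. The same contrast gave -0.68 (SE 0.09, adjusted p = 1.3e-09, limma) for the vagus and 0.47 (SE 0.08, adjusted p = 6.9e-06) for the ocular nuclei. The vagal samples also had the lowest astrocyte marker sum (mean 583 RPKM against 1265 to 2136 RPKM in the other 5 populations). Aldoc (mean 495 RPKM in the vagus) and S100b (23.4 RPKM) made up most of that sum and were lowest there, while Gfap (8.75 RPKM) and Slc1a3 (20.9 RPKM) had their highest means in the vagus and Gja1 (18.8 RPKM) and Aqp4 (7.78 RPKM) their second highest, so the sum gives no order of astrocyte content. The part of astrocyte RNA in these differences was not tested.

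**Figure D2:**
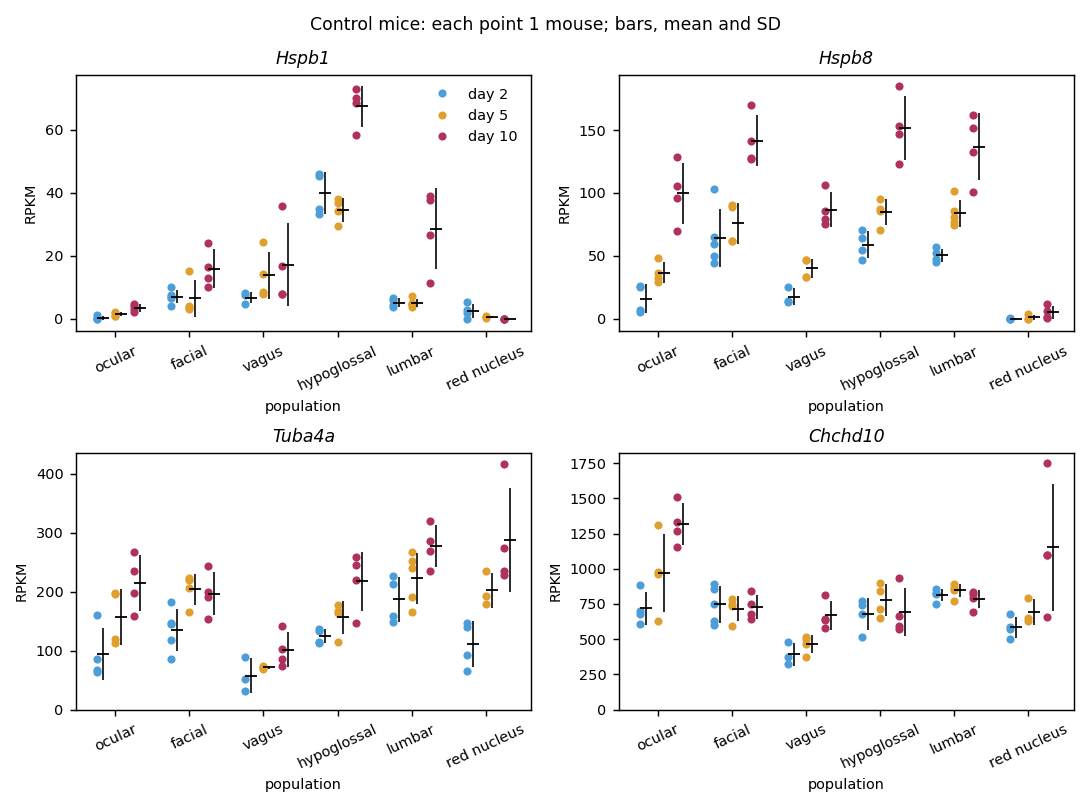
Control levels in RPKM of 4 genes by population and postnatal day, 1 point per mouse, with bars for the mean and SD. Hspb1 is highest in hypoglossal neurons at 29.3 to 72.7 RPKM, Hspb8 stays at or under 11.8 RPKM in the red nucleus, and Chchd10 at day 10 reaches 1508 RPKM in ocular and 1751 RPKM in red nucleus neurons.

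Ocular and lumbar motor neurons, the resistant and the vulnerable ends of the motor populations, were then compared directly in controls. Ocular neurons had more RNA of 6 members and less of 8, together 14 of 31 (15.2% of all genes tested passed, 6.68% higher and 8.5% lower in ocular neurons). All 6 that were higher bind RNA except Optn, the autophagy receptor. Tia1, a stress granule protein, ran from 14.0 through 26.5 to 42.6 RPKM in ocular samples (n = 12) and from 9.04 through 13.5 to 24.5 RPKM in lumbar samples (n = 13), which overlapped in part (log2 difference 0.85, SE 0.16, adjusted p = 4.0e-05, limma). The differences were 0.88 for Optn, 0.72 for Hnrnpa2b1, 0.69 for Hnrnpa1, 0.55 for Matr3 and 0.44 for Ewsr1. Optn, Hnrnpa1 and Ewsr1 were the least secure of these, with adjusted p of 0.0256, 0.0178 and 0.0265.

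The 8 members lower in ocular neurons were both small heat shock genes (Hspb1 -2.03, Hspb8 -1.18), Fig4, a phosphoinositide phosphatase (-0.81), Sqstm1 (-0.72), Tuba4a (-0.66), Pfn1 (-0.54), Gars (-0.46) and Ubqln2 (-0.38). Sqstm1, the autophagy receptor also called p62, ran from 124.1 through 379.6 to 535 RPKM in ocular samples and from 431 through 643 to 887 RPKM in lumbar samples. The ranges overlapped when the 3 days were pooled (SE of the difference 0.10, adjusted p = 6.2e-08, limma). In a list of 25 other RNA-binding and granule genes, 6 were higher and 1 lower in ocular neurons, led by Elavl4 (0.91, SE 0.10). In 22 chaperone genes, 2 were higher and 5 lower, led by Cryab (-1.47, SE 0.34) and Hspb6 (-1.45, SE 0.39). All 10 of 22 tubulin and cytoskeletal genes that passed were lower, as were 8 of the 11 that passed among 38 other motor neuron disease genes, led by Prph (-1.20, SE 0.10) and Nefh (-0.81, SE 0.10), both neuronal intermediate filament proteins. Over the 31 members the median difference was -0.08, and over all genes tested -0.03.

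The next comparison asked how these genes change between day 2 and day 10 in control mice, the period in which SMA mice go from presymptomatic to late symptomatic. Averaged over the 6 populations, 9 members rose and 7 fell, 16 of 31 in all (22.8% of all genes tested passed, 10.2% rising and 12.6% falling). The risers were Hspb8, Hspb1, Tuba4a, Sqstm1, Tardbp, Vapb, Bscl2, Chchd10 and Vcp. All 7 that fell were RNA-binding proteins except Nek1 and Chmp2b. Of the RNA-binding members only Tardbp rose, by 0.47 (SE 0.13, adjusted p = 0.0038, limma). The numbers in the library names followed age in controls. Every day 10 control library had a higher number than every day 2 control library, so age and number cannot be told apart here. Median control depth was 6.51 M reads at day 2 and 4.98 M reads at day 10. The part of library number or depth in the age changes was not tested.

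Sqstm1 rose without overlap in each of the 6 populations. The share of all genes whose days separated in this way was not counted, for Sqstm1 or for the members that follow. In lumbar neurons the day 2 samples were 431, 453, 459 and 474 RPKM and the day 10 samples 752, 816, 872 and 887 RPKM. In ocular neurons they were 124.1, 319, 355 and 375 RPKM at day 2 and 453, 489, 513 and 535 RPKM at day 10. Every day 10 sample thus exceeded every day 2 sample of its population, and the ratio of means was 1.45 to 1.83 across the 6 populations (log2 difference 0.72, SE 0.08, adjusted p = 1.4e-11, limma).

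Hspb8 rose without overlap in all 6 populations too, with the largest change of the members (1.83, SE 0.16, adjusted p = 4.8e-14, limma). In the red nucleus this separation was narrow and near the detection limit. Day 2 samples there were at 0 except mouse 14 at 0.8288 RPKM, and the lowest day 10 sample was at 0.942 RPKM. From the recovered depths, 3 reads of Hspb8 in the red nucleus libraries of day 10 would have given 0.204 to 4.50 RPKM. Ocular samples were at 5.43, 6.97, 25.3 and 26.1 RPKM on day 2 and at 69.5, 96.2, 105.2 and 128.4 RPKM on day 10. Lumbar samples were at 45.4, 47.6, 52.2 and 56.99 RPKM and then at 101.1, 132, 152 and 162 RPKM. The lowest day 10 ocular sample exceeded the highest day 2 lumbar sample. Bag3, its co-chaperone and not itself one of the 32 genes, had a control mean of 6.24 RPKM at day 2 and 39.05 RPKM at day 10 (2.85, SE 0.19, adjusted p = 1.6e-19, limma).

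Tuba4a rose from a median of 125.5 RPKM (31.1 to 226.5, n = 24) at day 2 to 231.3 RPKM (74.7 to 416, n = 24) at day 10, a log2 difference of 0.91 (SE 0.11, adjusted p = 2.2e-09, limma), and its groups separated in 3 of the 6 populations. Hspb1 rose by 0.86 (SE 0.18), Vapb, which tethers the endoplasmic reticulum to other membranes, by 0.43 (SE 0.11), Bscl2, or seipin, a lipid droplet protein, by 0.43 (SE 0.08), Chchd10 by 0.42 (SE 0.08) and Vcp, the segregase, by 0.28 (SE 0.07). Glial marker sums moved with age as well. Over all controls the mean astrocyte sum, mostly Aldoc and S100b, was 1447 RPKM at day 2 and 1948 RPKM at day 10. The oligodendrocyte sum was higher at day 10 as given above. In the vagus the astrocyte markers summed to 386 to 601 RPKM at day 2 and to 640.3 to 819.6 RPKM at day 10, without overlap, and the oligodendrocyte markers to 53.4 to 114 RPKM and then to 41.8 to 89.7 RPKM. There Sqstm1 was at 340.4, 390.4 and 505 RPKM on day 2 and at 595, 636, 681 and 693 RPKM on day 10, and Hspb8 at 13.4, 14.1 and 25.5 and then at 75.0, 79.4, 85.3 and 106.7 RPKM. The part of glial RNA in these changes was not tested.

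The falling members were Tia1 (-0.85, SE 0.12, adjusted p = 1.1e-07, limma), Hnrnpa2b1 (-0.60, SE 0.09), Hnrnpa1 (-0.57, SE 0.16), Matr3 (-0.46, SE 0.09), Ewsr1 (-0.37, SE 0.11), Nek1 (-0.36, SE 0.12) and Chmp2b, an ESCRT-III subunit (-0.33, SE 0.11). Tia1 had a median of 28.2 RPKM at day 2 (16.4 to 45.9, n = 24), 20.7 RPKM at day 5 (9.69 to 32.8, n = 24) and 15.6 RPKM at day 10 (7.74 to 30.9, n = 24). The ranges overlapped over all samples, and the mean fell in each of the 6 populations. Hnrnpa2b1 fell from a median of 103 RPKM (59.7 to 162) to 65.3 RPKM (40.1 to 102.1). In the list of 25 further RNA-binding and granule genes 13 fell and 0 rose, led by Pabpc1 (-0.999, SE 0.18) and Hnrnph1 (-0.82, SE 0.12), with a list median of -0.29 against -0.04 over all genes tested. Of 22 further chaperones 8 rose and 2 fell, led by Bag3, Hspb6 (2.34, SE 0.31) and Cryab (1.83, SE 0.27). Of 27 autophagy and ubiquitin genes 7 rose and 3 fell, among them Tfeb, the transcriptional regulator of lysosomal genes (1.04, SE 0.26), and Gabarapl1 (0.97, SE 0.08) rising and Ulk2 (-0.73, SE 0.12) falling. In the cytoskeletal list 4 rose and 9 fell of 22, led by Tubb2b (-2.05, SE 0.14), so that Tuba4a moved against the members of that list that changed most.

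**Figure D3:**
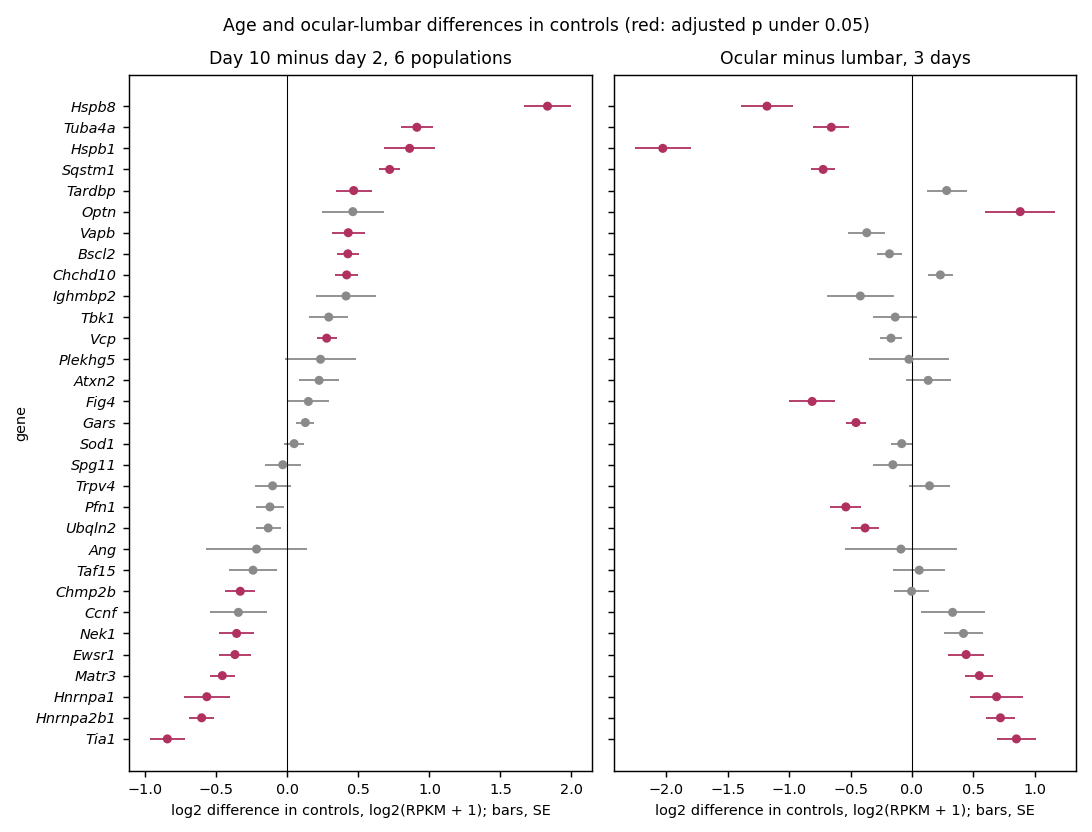
Log2 differences on the log2(RPKM + 1) scale for the 31 tested genes in controls, day 10 minus day 2 on the left and ocular minus lumbar on the right, ordered by the age difference, with bars for the SE and red for adjusted p under 0.05. On the left Hspb8 stands highest at 1.83 and Tia1 lowest at -0.85, and on the right Hspb1 is lowest at -2.03.

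For 2 of 31 members the change with age differed among populations (2.4% of all genes tested passed). Hspb1 (F = 6.30, adjusted p = 0.00048, limma) in lumbar samples was at 3.70, 4.39, 5.84 and 6.66 RPKM on day 2 and at 11.2, 26.6, 37.6 and 39.02 RPKM on day 10. In red nucleus samples it was at 0, 1.86, 2.73 and 5.32 RPKM on day 2 and at 0 in all 4 on day 10, 1 of these libraries having only 0.342 M reads. The lumbar groups separated upward, while the red nucleus moved the other way with 1 day 2 sample also at 0. Chchd10 (F = 3.91, adjusted p = 0.0248, limma) in ocular samples was at 610.4, 679.5, 699 and 885 RPKM on day 2 and at 1155, 1270.0, 1333 and 1508 RPKM on day 10. In lumbar samples its mean was 815 RPKM on day 2 and 787 RPKM on day 10. The rise was not particular to ocular neurons. The ratio of day 10 to day 2 means was 1.83 in ocular, 1.70 in vagal and 1.97 in red nucleus neurons. It was 0.976 in facial and 1.02 in hypoglossal neurons. The days separated in ocular and vagal neurons and overlapped in the red nucleus. The Chchd10 result missed the threshold in 5 fits without 1 mouse: adjusted p was 0.0541 without mouse 30, 0.0672 without 244, 0.150 without 252, 0.0717 without 253 and 0.0957 without 254.

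The effect of genotype was tested first within each population and day. None of the 531 tests of members over 18 contrasts passed (29 to 31 members per contrast, limma, adjusted p threshold 0.05). The background was also low, since 0.129% of all gene tests passed. At an unadjusted p under 0.05 there were 40 member tests (7.53%), against 7.1% of all tests. The members nearest the threshold were in lumbar neurons on day 10, a vulnerable population at the latest day (0.775% of all genes passed there). There Ewsr1 had a mean of 23.1 ± 4.64 RPKM in controls (SD, n = 4) and 14.1 ± 2.80 in SMA mice (n = 5), a log2 difference of -0.68 (SE 0.19, adjusted p = 0.0853, limma), and without mouse 196 it passed (-0.78, adjusted p = 0.0448). Taf15, of the same RNA-binding family, lay at 5.84 to 8.72 RPKM in controls and at 1.83 to 3.62 RPKM in SMA mice without overlap (-1.07, SE 0.30, adjusted p = 0.102, limma). Chchd10 lay at 694 to 833 RPKM in controls and at 889.9 to 1191 RPKM in SMA mice, again without overlap (0.33, SE 0.09, adjusted p = 0.0908, limma). The share of all genes whose groups did not overlap was not counted, here or in the other comparisons. In groups this small, some separations arise by chance. In ocular neurons Hspb1 lay at 1.03 to 2.30 RPKM in day 5 controls and at 0 to 0.762 RPKM in day 5 SMA mice, and at 2.04 to 4.59 and 0.514 to 1.88 RPKM on day 10. Neither day overlapped, and neither passed (adjusted p = 0.442 and 0.244, limma). These levels were low, and the level that 3 reads would give was not worked out for ocular libraries. In the red nucleus controls of day 5 it was 0.225 to 0.325 RPKM. The ocular SMA group of day 10 also had red nucleus marker sums of up to 212.8 RPKM, as given above. On day 5 the red nucleus separated the other way, with Hspb1 at 0.135 to 0.859 RPKM in controls and at 1.12 to 2.65 RPKM in SMA mice, and over the 6 populations the SMA mean was lower in 3 and higher in 3.

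Averaged over the 6 populations, 2 of 31 members differed between SMA and control mice on day 2 (1.54% of all genes tested passed), Sod1 lower and Vapb higher in SMA mice. Sod1, the cytosolic superoxide dismutase, lies at chromosome 16, 90220754 to 90226329 (mm10), where its locus overlaps Scaf4 on the other strand. Hypoglossal day 2 controls had 1709, 1711, 1763 and 1920.3 RPKM, while the 6 SMA samples ran from 879 through a median of 1196 to 1369 RPKM. Vagal controls had 1688, 1912 and 1929.5 RPKM and the 6 SMA samples ran from 981 through 1363 to 1488 RPKM. The genotypes separated in those 2 populations. They overlapped in the other 4, and the SMA mean was below the control mean in 6 of 6 (1293 ± 250.5 RPKM, SD, n = 36, against 1720.1 ± 353, n = 24, over all day 2 samples). The log2 difference was -0.40 (SE 0.08, adjusted p = 0.00044, limma).

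Vapb was at 9.53, 9.69 and 10.6 RPKM in vagal day 2 controls and ran from 13.1 through 15.2 to 18.1 RPKM in the 6 SMA samples. Ocular controls had 5.60, 11.5, 13.0 and 13.6 RPKM and the 6 SMA samples ran from 14.3 through 16.3 to 22.1 RPKM. Both populations separated, and the SMA mean was higher in 6 of 6. The log2 difference was 0.38 (SE 0.10, adjusted p = 0.0157, limma). It missed the threshold over the 5 motor populations alone (0.36, adjusted p = 0.0539) and in 5 fits without 1 mouse, with adjusted p of 0.0659 without mouse 26, 0.0768 without 206, 0.0713 without 211, 0.0814 without 240 and 0.131 without 244.

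The numbers in the library names followed genotype on day 2. They formed a lower and a higher run with a gap between. The lower run held 12 control and 7 SMA samples. In the higher run, the highest numbers belonged to 10 control samples, and 29 SMA samples and 2 control samples lay below them. Among samples of the lower run, Sod1 was at 1151 to 2772 RPKM in 12 control samples of 3 mice and at 1189.8 to 1899 RPKM in 7 SMA samples of 2 mice. Restricted to those libraries, in the 4 populations that had both genotypes, the log2 difference was -0.26 for Sod1 (adjusted p = 0.705, limma) and 0.23 for Vapb (adjusted p = 0.883), and 0 members passed. Restricted to the higher run, it was -0.39 for Sod1 (adjusted p = 0.0248) and 0.63 for Vapb (adjusted p = 0.0027). In the higher run the genotypes shared a stretch of numbers with only 2 controls, both lumbar. There Vapb was at 19.0 and 20.1 RPKM in the controls, above the SMA mean of 15.9 RPKM (n = 29), and Sod1 averaged 1362 RPKM in the controls and 1256 RPKM in the SMA samples. The lumbar SMA samples of day 2 averaged 17.8 RPKM of Vapb and 1279.6 RPKM of Sod1 (n = 7). The 10 controls with the highest numbers, where there were no SMA samples, averaged 10.4 RPKM of Vapb and 1747 RPKM of Sod1. Both restrictions were chosen after the data were seen. What the numbers stand for is not stated in the labels, and their part in the differences was not tested. Mean astrocyte marker sums on day 2 were 1447 RPKM in controls, where Aldoc and S100b made up most of the sum, and 1498 RPKM in SMA mice.

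**Figure D4:**
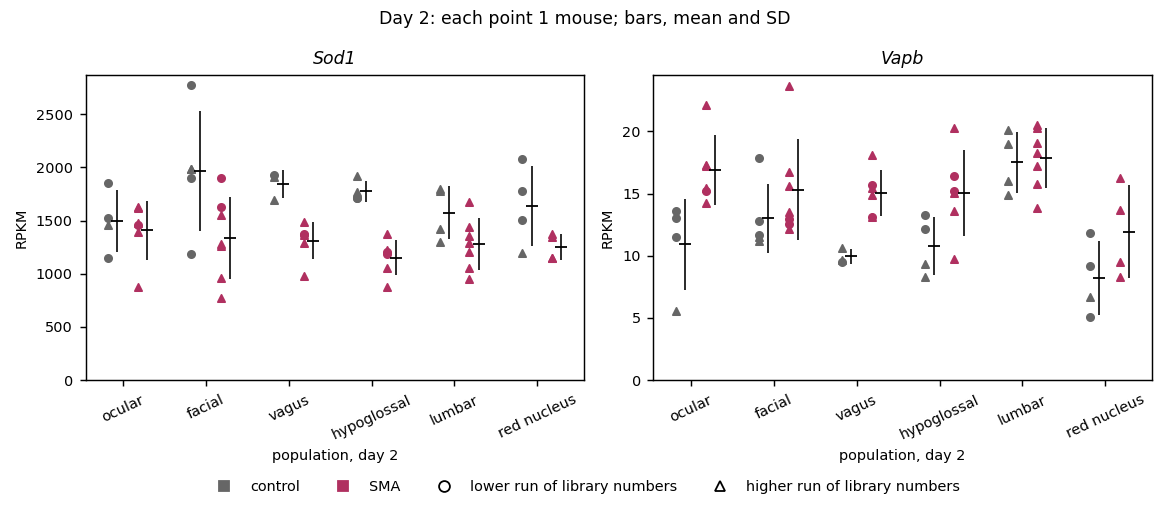
Day 2 levels of Sod1 and Vapb in RPKM by population, 1 point per mouse, grey for control and red for SMA, with circles for the lower run of library numbers, triangles for the higher run and bars for the mean and SD. Sod1 points of the genotypes separate in hypoglossal and vagal neurons, and Vapb points in ocular and vagal neurons.

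On the later days 0 members passed. On day 5, 3 members had an unadjusted p under 0.05 (8.6% of all genes did, and 0.117% passed after adjustment), with Tia1 nearest (0.39, SE 0.12, adjusted p = 0.169, limma). On day 10 there were 4 (10.7% of all genes did, and 1.78% passed), Chchd10 (0.17), Ccnf (0.43), Sod1 (-0.17) and Taf15 (-0.36), with adjusted p of 0.364 to 0.451. Sod1 averaged 1616 ± 190 RPKM in controls (SD, n = 24) and 1591 ± 341 in SMA mice (n = 24) on day 5. Vapb, which had been higher in SMA mice on day 2, had an SMA mean below the control mean in 6 of 6 populations on day 10, none of them separate. Whether the genotype effect of either gene differed between days was not tested.

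Of the 168 tested genes in the related lists, 6 passed on day 2, 0 on day 5 and 6 on day 10. Of all genes tested, 1.54%, 0.117% and 1.78% passed on those days. On day 10 Nefh, the heavy neurofilament (-0.30, SE 0.07, adjusted p = 0.0091, limma), Bag3 (-0.61, SE 0.18, adjusted p = 0.0497) and Tial1, the paralog of Tia1 (-0.35, SE 0.10, adjusted p = 0.0378), were lower in SMA mice. Gpx1 (0.41), Txn1 (0.17) and Tubb6 (0.97) were higher. On day 2 Tial1 was lower as well (-0.39, SE 0.09, adjusted p = 0.0121, limma), as was Actb (-0.55, SE 0.13). Tubb2b (0.57), Atxn2l (0.47) and Tuba1a (0.30) were higher on day 2. Of these genes only Tial1 also passed on day 10. The SMA difference on day 10 varied among populations for 0 of 31 members (3 at an unadjusted p under 0.05, Hspb8, Gars and Ewsr1, with 6.98% of all genes below that p and 0.624% passing after adjustment).

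**Figure D5:**
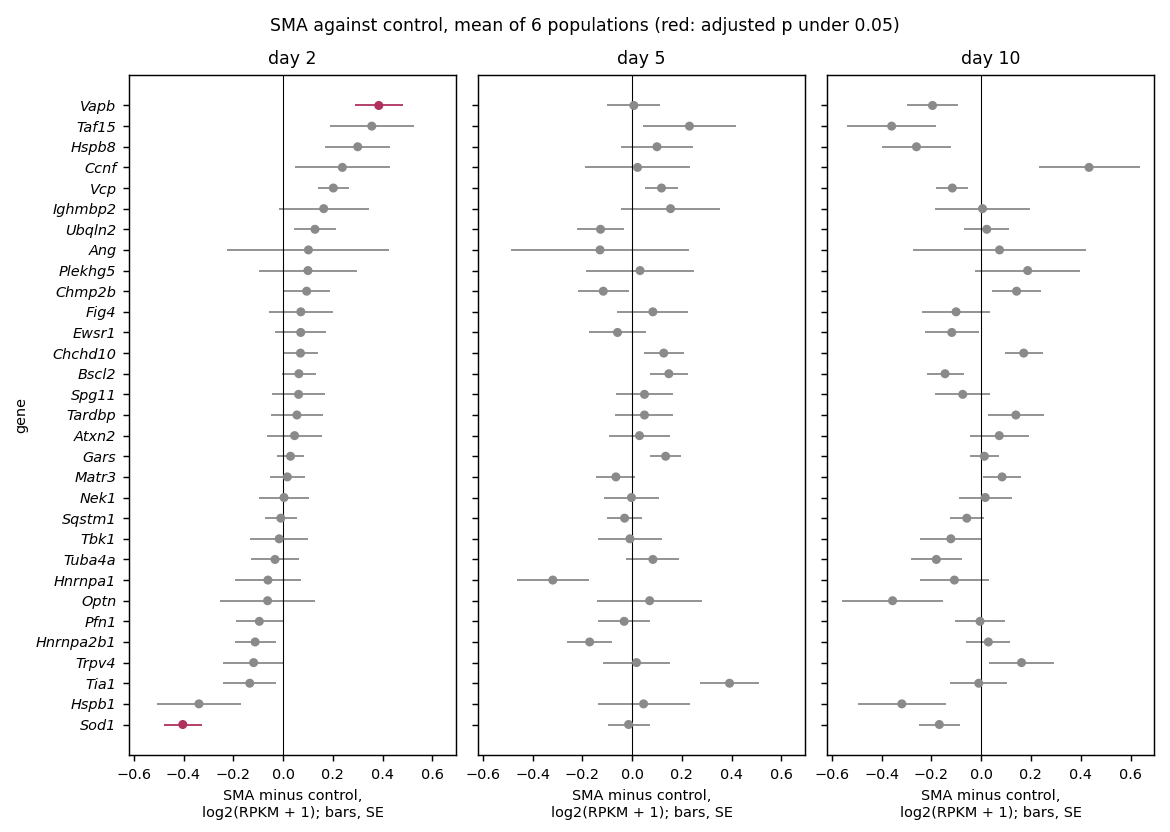
SMA minus control on the log2(RPKM + 1) scale, averaged over the 6 populations, for the 31 tested genes on days 2, 5 and 10, with bars for the SE and red for adjusted p under 0.05. Sod1 at -0.40 and Vapb at 0.38 on day 2 are the only red points.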

How the data were processed

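Laser-captured neurons were sequenced as Smart-seq2 libraries with Tn5 tagmentation, per the labels' protocols. The deposited table holds RPKM values of the authors, unlogged, for 168 libraries. STAR 2.4.1c and the builds mm10 and hg19 are named in the submitters' processing notes. Annotation, strand use and treatment of reads that map to several places are not given in the sources used here. Some ocular libraries hold nucleus 3 or 4 alone, and 5 lumbar control libraries of day 5 pool reads with an earlier deposit, per the labels.

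Libraries were assigned by name, and those of the same mouse and population averaged. limma 3.58.1 (R 4.3.3, trend) was fitted on log2(RPKM + 1), which understates changes of low genes, for genes of at least 1 RPKM in 3 samples, with p-values adjusted over all genes. Mice entered as a block in the age and averaged genotype comparisons (consensus correlation 0.0339 and 0.0366), since several populations came from the same animal. Deviations of same-mouse samples had a median r of 0.0296 in controls (150 pairs) and 0.0361 in SMA mice (189 pairs). Depth was recovered from RPKM steps of single-transcript genes, with a median of 78.5% of low values within 1% of whole reads. Tested on simulated data for the day 2 genotype comparison (19089 genes), 51% of log2 changes of 0.5 and 91% of 1 were recovered. For the age comparison (17864 genes) 39% and 90% were recovered. Changes were placed only in genes above a minimum mean level, and no mouse effect was simulated. Recovery for members of low level was therefore not measured. The members and all lists were chosen with earlier results of these data known. Named genes were the members, Smn1, up to 3 passing genes per related list and comparison with the largest change, and marker genes. Contrasts of 1 population with the other 5, and restrictions by library number, were added after the data were seen.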

Additional observations from a re-analysis of the deposited data

Results flagged for a closer look

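Over 7 genes, 6 groups of 4 to 10 samples (4.88% of those tested) had a sample far from the others by Dixon's criterion, where chance gives about 1 in 20. Hspb1 was 15.1 RPKM in facial control mouse 29 on day 5, against 3.08 to 4.02 in the others. Hspb8 was 0.8288 RPKM in red nucleus control mouse 14 on day 2, with the others at 0. Sod1 was 877 RPKM in ocular SMA mouse 207 on day 2, against 1392 to 1628, and 1269.6 RPKM in vagal control mouse 34 on day 5, against 1715 to 1765. Vapb on day 2 was 17.9 RPKM in facial control mouse 28, against 11.2 to 12.8, and 23.6 RPKM in facial SMA mouse 206, against 12.1 to 16.7, a sample from 1 of the 2 shallowest libraries. The change with age differed among populations for Hspb1 (adjusted p = 0.00048, limma) and Chchd10 (adjusted p = 0.0248).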

How the results depend on the processing

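Of the results for members past the threshold, contrasts of single populations included, 78.9% stayed past it in every fit that left out 1 mouse and 82.1% under every other alternative, and 0 changed sign. The members differing among populations numbered 16 to 22, those differing between ocular and lumbar controls 11 to 15 and those changing with age 13 to 16 over all alternatives. With the mouse as a replicate block 21, 14 and 2 members passed for populations, ocular against lumbar and age by population, as without it; with no replicate block 16 changed with age, 3 differed by genotype on day 2 and 0 on days 5 and 10.

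The day 2 count of members by genotype was 1 over motor populations only and 0 with the lower run of library numbers, where Hspb1 (0.018) and Taf15 (-0.10), neither past the threshold, changed sign. Fits without 1 mouse gave 1 to 3 there, 1 to 2 for age by population, and 0 to 1 over the 18 contrasts within populations. In the related lists, ocular against lumbar gave 28 without day 5 (44 with it). Day 10 by genotype gave 2 over motor populations only (6 in all), and day 2 gave 0 with the lower run (6 in all). The 18 contrasts gave 1 each under quantile normalization, each library as its own sample, only the 2 groups compared and 1 fit over all samples (0 otherwise), and age by population gave 3 without the 2 shallowest libraries (5 with them). Fits without 1 mouse gave 2 to 6 (day 10), 2 to 9 (day 2), 0 to 3 (day 5), 0 to 1 (18 contrasts) and 1 to 8 (age by population) for the related lists. Which mouse or setting property caused these shifts was not tested. Ang was above 0 in 54 of 160 samples, Trpv4 in 64 and Anxa11 in 3, which limits what can be seen in them.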
